A study of Homo sapiens with 29 samples.

Results

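The genes of 42 chromatin remodelling proteins were followed through oncogene-induced senescence and SMARCA4 knockdown in IMR90 ER:RAS cells. They are the subunits of the SWI/SNF (BAF) complexes other than the ATPases, and members of the ISWI, CHD and NuRD, INO80 and ATRX/HELLS groups. They were chosen by symbol from the 28266 gene symbols of the count table, and all 42 were found and passed the filter on low counts. IMR90 is a line of human lung fibroblasts. ER:RAS is a retroviral fusion of the estrogen receptor with RAS that is switched on by 4-hydroxytamoxifen (4OHT). The 3 groups held 6 libraries each, labelled day 7. DMSO_siNT held cells given the solvent DMSO and a non-targeting siRNA (siNT), 4OHT_siNT held cells given 4OHT and siNT, and 4OHT_siSMARCA4 held cells given 4OHT and an siRNA against SMARCA4. By the labels every group carried the ER:RAS transgene and was transfected, and every group used 2 siRNAs, numbered 2 and 4. Libraries are named below by siRNA number and set name, such as 4-2V, where the labels do not say what V and VM mean. Nothing in the labels says that libraries came from separate cultures, so p-values measure the spread between these libraries.

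SWI/SNF complexes use ATP to slide or evict nucleosomes and so open enhancers and promoters. Each complex is built on 1 ATPase, SMARCA4 or SMARCA2, and is assembled from families of related subunits, many of which replace each other. In the forms that are distinguished, cBAF carries ARID1A or ARID1B and a DPF protein, PBAF carries ARID2, PBRM1, BRD7 and PHF10, and ncBAF carries BRD9 and BICRA or BICRAL. ISWI enzymes space nucleosomes, CHD enzymes include the engine of the NuRD deacetylase complex, INO80-type enzymes exchange histone variants, and ATRX and HELLS are linked to heterochromatin and DNA methylation. Senescent fibroblasts leave the cell cycle and reorganise their chromatin, which is the setting in which these genes were read.

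Growing libraries held 9657309 to 13448183 counts in total. Those of 4OHT_siNT held 13237672 to 15407710, and the knockdown libraries 11382143 to 18039313. All 6 4OHT_siNT libraries were from VM sets, whereas the growing group was split into 3 V and 3 VM, and the knockdown group into 3 V, 2 VM and 1 library whose column is named 1VM but matches no sample title. This library was placed by the group in its column name and is called the untitled library. The library DMSO_siNT 4-2V stood apart. It was the lowest or highest DMSO_siNT library for 35 of the 42 genes, against 3 to 16 for the others, and its median distance from the mean of the other 5 was 0.804 on the log2 scale, against 0.17 to 0.305. It also had the lowest depth, the most genes detected (17915) and 29.5 CPM (a gene's counts relative to the library's total) of ESR1 against 1030 to 1320 CPM in the other DMSO_siNT libraries. HRAS was at 436 CPM against 2170 to 2850 CPM. These levels go against the ER:RAS label of the library labelled DMSO_siNT 4-2V, so calls that rest on it are given with and without it. Fits within VM sets and fits with siNT 2 alone also leave out DMSO_siNT 4-2V, so they are not separate checks on it. The 8 fibroblast markers summed to 11400 to 31300 CPM in growing libraries, 14900 to 19800 in 4OHT_siNT and 8630 to 12600 under knockdown. In the same order epithelial markers summed to 5.42 to 11.4, 2.62 to 3.34 and 0.808 to 2.99 CPM, with KRT5 at 0, and endothelial markers to 1.35 to 2.39, 4.29 to 5.53 and 1.3 to 5.78 CPM. Blood and NK cell markers reached at most 0.717 CPM, with NKG7 at 0. The part of these markers in the results below was not tested. The target was checked first. SMARCA4 ran from 274.8 through a median of 297 to 329.9 CPM in 4OHT_siNT and from 70.4 through 89.8 to 141 CPM in 4OHT_siSMARCA4, with no overlap. SMARCA2, the other ATPase, ran from 26.7 to 35.8 and from 16.2 to 23.7 CPM in these groups.

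To ask which remodeller genes differ between senescent and growing cells, 4OHT_siNT was compared with DMSO_siNT by edgeR with all 18 libraries in 1 fit. At an adjusted p under 0.05, 18 of 42 genes were called, 5 higher and 13 lower, that is 42.9% of them where 52.8% of all 13136 genes tested were called. Higher calls made up 11.9% of the members and 23.9% of all genes, and lower calls 31.0% and 28.9%. The median log2 fold change of the 42 genes was −0.109, beside −0.0527 for all genes. Ranges of the groups did not overlap for 9 members, or 21.4%, against 33.8% of all genes. Without DMSO_siNT 4-2V the picture was more even: 24 members were called, 12 higher and 12 lower, or 28.6% each way, where 27.9% of all genes were higher, 30.3% lower and 58.3% called. Groups then did not overlap for 14 members (33.3%, against 41.2% of all genes). Within the titled VM sets 21 members were called, 11 higher and 10 lower, where 53.5% of all genes were called. In bulk RNA, fewer cells expressing a gene and less RNA per cell cannot be told apart.

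**Figure D1:**
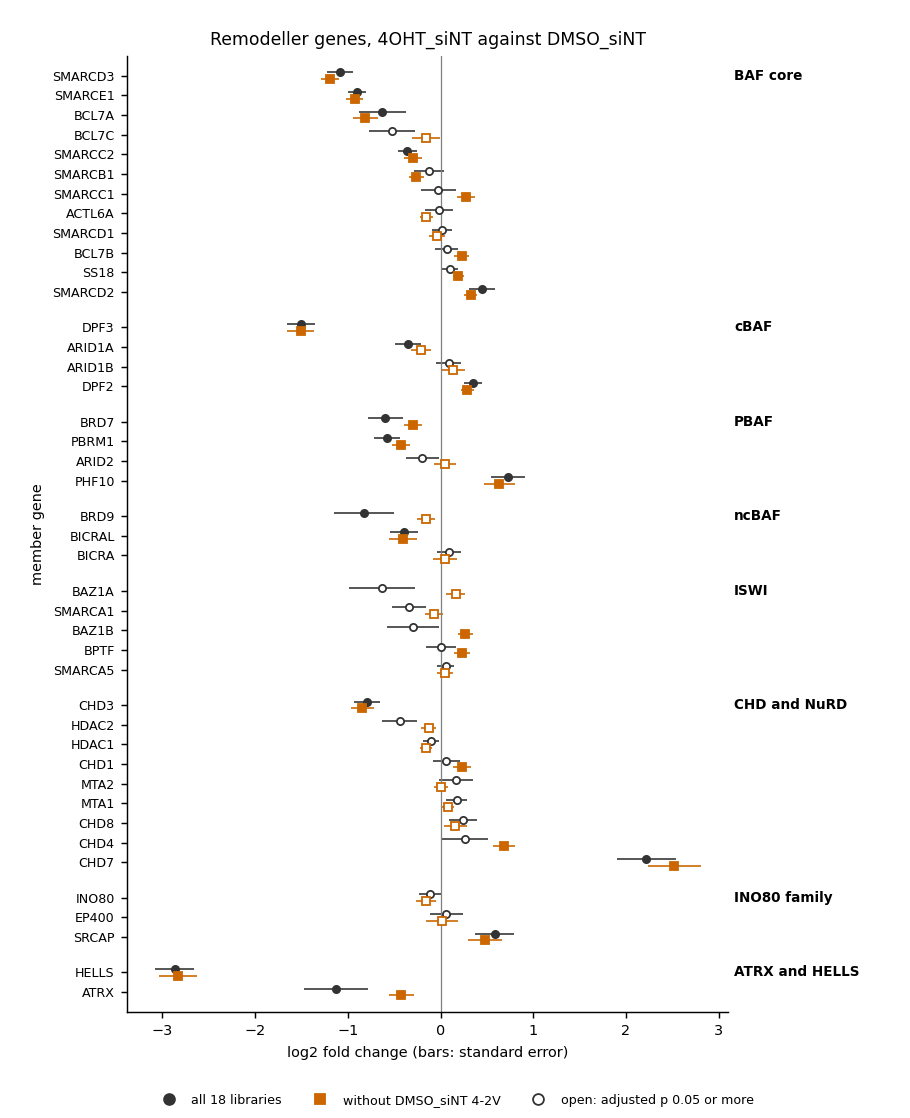
Log2 fold change of each of the 42 genes in 4OHT_siNT over DMSO_siNT (x axis) by complex (y axis), with bars for the standard error, from all 18 libraries (circles) and without DMSO_siNT 4-2V (squares). Filled marks passed the test. HELLS lies farthest left at −2.87 and CHD7 farthest right at 2.22, and the circles of ATRX, BRD9, BAZ1A and CHD4 sit away from their squares.

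HELLS, a helicase of the SNF2 family needed for DNA methylation at repeats, fell most. It ran from 8.43 through a median of 10.4 to 12.7 CPM in DMSO_siNT, from 0.781 through 1.61 to 1.92 CPM in 4OHT_siNT and from 1.12 through 1.55 to 2.05 CPM in 4OHT_siSMARCA4. Every growing library lay above every senescent library, 4-2V included (11.6 CPM). The log2 fold change was −2.87 ± 0.21 (SE; adjusted p = 1.44e-09) and was −2.83 without DMSO_siNT 4-2V and −2.63 within VM sets.

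The gene, which codes for protein, spans 94545329 to 94613905 on the plus strand of chromosome 10 (GENCODE version 44, GRCh38, as for the other positions). In the same comparison all 10 genes of a proliferation list, among them MKI67 (−5.74 ± 0.36), CDK1 (−5.39 ± 0.30) and PCNA (−0.91 ± 0.21, log2 fold changes with SE), were called lower, with a median of −2.23. The part of the proliferation state in the level of HELLS was not tested. ATRX, the SNF2-family protein that loads histone H3.3 at telomeres and repeats, was also called lower, by −1.13 ± 0.34 (adjusted p = 0.0102). Its DMSO_siNT libraries ran from 116 through 156 to 699 CPM and its 4OHT_siNT libraries from 87.7 through 111 to 127 CPM, and the groups overlapped. The value of 699 CPM was that of 4-2V, where the other 5 libraries reached 170.2 CPM at most. Without it the change was −0.42 ± 0.13 (adjusted p = 0.00933), and within VM sets −0.42 (adjusted p = 0.0203), and with siNT 2 alone ATRX was not called (−0.14, adjusted p = 0.526).

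Of the 12 genes grouped here as the BAF core, because they serve in more than 1 form of the complex, 5 were called in senescence, 1 higher and 4 lower (41.7%, where 52.8% of all genes were called). Without 4-2V 9 were called, 4 higher and 5 lower (75.0%, where 58.3% of all genes were). The falls were led by SMARCD3 and SMARCE1. The SMARCD proteins (BAF60) link the complex to transcription factors, and a complex holds 1 of the 3. SMARCD3 ran from 24.9 through 44.6 to 53.3 CPM in DMSO_siNT and from 18.97 through 19.9 to 21.4 CPM in 4OHT_siNT, without overlap, although 4-2V, at 24.9 CPM, was the lowest DMSO_siNT library. The gene lies at chromosome 7, 151238764 to 151277896, minus strand. It fell by 1.09 on the log2 scale (SE 0.14, adjusted p = 2.48e-06; −1.19 without 4-2V, −1.26 in VM sets). SMARCD2 moved the other way. It ran from 24.6 through 51.1 to 54.3 CPM in DMSO_siNT and from 58.2 through 64.8 to 69.1 CPM in 4OHT_siNT, and it rose by 0.45 ± 0.14 (adjusted p = 0.00999; 0.32 without 4-2V). SMARCD1 was at 45.4 to 72.3 and at 56.7 to 63.9 CPM, with a log2 fold change of 0.018 ± 0.10 (adjusted p = 0.897).

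SMARCE1 (BAF57), an HMG-domain subunit that contacts DNA, fell by nearly as much. It ran from 140.2 through 161 to 173 CPM in DMSO_siNT and from 75.6 through 84.1 to 90.7 CPM in 4OHT_siNT, with no overlap. The gene lies at chromosome 17, 40624962 to 40648654, minus strand. The change was −0.90 ± 0.10 (adjusted p = 3.51e-07) and −0.92 without 4-2V, and 4-2V itself, at 142.5 CPM, lay with the other growing libraries. SMARCC2 (BAF170), which with SMARCC1 (BAF155) forms the scaffold, ran from 88.9 through 112.5 to 133 and from 71.9 through 88.7 to 100.2 CPM. These ranges overlapped, and it was called lower (−0.36 ± 0.10, adjusted p = 0.00669), as it was without 4-2V (−0.30, adjusted p = 0.00966) but not within VM sets (−0.23, adjusted p = 0.096) or with siNT 4 alone (−0.21, adjusted p = 0.273). SMARCC1 had no call with all libraries (−0.022 ± 0.19, adjusted p = 0.929). Its highest DMSO_siNT library was 4-2V at 253 CPM, the next 5 running from 88.8 to 124.5 CPM. Without 4-2V SMARCC1 was called higher (0.27 ± 0.10, adjusted p = 0.0226). It was also called higher within VM sets, which lack 4-2V too (0.39, adjusted p = 0.00517).

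The BCL7 proteins are small subunits at the nucleosome-facing end of the complex. BCL7A ran from 3.47 through 15.8 to 18.9 CPM in DMSO_siNT and from 7.79 through 9.03 to 11.3 CPM in 4OHT_siNT. The lowest of these values was again 4-2V, and the other 5 growing libraries, at 13.4 CPM or more, all lay above the senescent libraries. BCL7A was called lower (−0.63 ± 0.25, adjusted p = 0.0443), a call lost in 16 of 18 fits that each left out 1 library, while leaving out 4-2V gave −0.81 ± 0.14 (adjusted p = 3e-05). BCL7B was at 42.3 to 79.5 CPM in DMSO_siNT and 49.2 to 56.8 CPM in 4OHT_siNT (0.065 ± 0.13, adjusted p = 0.686), and without 4-2V it was called higher (0.23, adjusted p = 0.0221). BCL7C was at 41.5 to 152 and 43.8 to 54.4 CPM (−0.52 ± 0.25, adjusted p = 0.0809). Its 152 CPM was that of 4-2V, where the other growing libraries reached 71.7 CPM at most. BCL7C was not called without 4-2V. It was called lower within VM sets and without DMSO_siNT 2-1V, and was also called with siNT 4 alone. The remaining core genes, SMARCB1, ACTL6A and SS18, had log2 fold changes from −0.12 to 0.11 and no call with all libraries. Without 4-2V, SMARCB1, the subunit that touches the nucleosome acidic patch, was called lower (−0.26, adjusted p = 0.0086) and SS18 higher (0.19, adjusted p = 0.0117).

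Among the cBAF subunits the DPF proteins, readers of acetylated histones, separated. DPF3 ran from 13.5 through 18.6 to 25.3 CPM in DMSO_siNT and from 5.94 through 6.60 to 8.597 CPM in 4OHT_siNT. DPF2 ran from 42.2 through 59.4 to 62.6 CPM and from 66.4 through 71.6 to 80.1 CPM. For neither gene did the groups overlap. DPF3 lies at chromosome 14, 72609034 to 72894101, minus strand. DPF3 fell by 1.51 on the log2 scale (SE 0.15, adjusted p = 7.74e-08, the same value without 4-2V), and DPF2 rose by 0.35 ± 0.09 (adjusted p = 0.00383; 0.29 without 4-2V), a call lost with siNT 2 alone (0.17, adjusted p = 0.105). The ARID1 subunits give cBAF its identity. ARID1A ran from 64.9 through 89.3 to 136 CPM in DMSO_siNT, with 4-2V highest, and from 63.4 through 75.2 to 85.6 CPM in 4OHT_siNT. Its call as lower (−0.35 ± 0.14, adjusted p = 0.0421) was lost without 4-2V (−0.21, adjusted p = 0.105) and in 11 of 18 leave-outs in all. ARID1B was at 29.7 to 49.3 and 38.6 to 51.4 CPM (0.087 ± 0.13, adjusted p = 0.598).

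In PBAF, PHF10 (BAF45A), which is related to the DPF proteins, rose. It ran from 6.10 through 10.7 to 12.3 CPM in DMSO_siNT and from 12.9 through 17.2 to 19.01 CPM in 4OHT_siNT, without overlap, and its log2 fold change was 0.73 ± 0.19 (adjusted p = 0.00278; 0.63 without 4-2V and 0.76 in VM sets). The PHF10 call was lost with siNT 2 alone (0.48, adjusted p = 0.108). PBRM1, the subunit with a row of bromodomains, and BRD7, a bromodomain subunit, were called lower, by −0.58 ± 0.14 and −0.59 ± 0.19 (adjusted p = 0.00152 and 0.013). Library 4-2V was the highest growing library for both, at 122 CPM of PBRM1 and 115 CPM of BRD7, where the next reached 88.4 and 56.0 CPM. Without it the changes were −0.42 and −0.30, and both were still called. With siNT 2 alone BRD7 was not called (−0.14, adjusted p = 0.387). ARID2, the PBAF counterpart of ARID1, was at −0.19 ± 0.18 (adjusted p = 0.38). Library 4-2V was again highest, at 32.2 CPM where the other growing libraries reached 17.1 CPM, and ARID2 was not called without it.

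The ncBAF genes gave less stable values. BRD9, the bromodomain subunit that defines this form, was called lower (−0.83 ± 0.32, adjusted p = 0.0369), but 4-2V had 239 CPM where the other growing libraries had 47.5 to 63.1 CPM and the senescent libraries 43.2 to 49.5 CPM. Without 4-2V it was not called (−0.16 ± 0.09, adjusted p = 0.168), nor within VM sets (−0.20, adjusted p = 0.108). BICRAL ran from 7.13 through 10.7 to 12.9 CPM and from 7.24 through 8.003 to 9.32 CPM and was called lower with and without 4-2V (−0.40 ± 0.15, adjusted p = 0.032 and 0.0272), though not within VM sets (−0.32, adjusted p = 0.117) or with siNT 4 alone (−0.26, adjusted p = 0.39). The call of BICRAL was lost in 5 of 18 leave-outs. BICRA was at 12.9 to 19.9 and 12.5 to 20.6 CPM (0.091 ± 0.13, adjusted p = 0.581), and it was called with siNT 4 alone.

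The ISWI genes showed how far 1 library reached. With all libraries edgeR called 0 of 5, where 52.8% of all genes were called, and 0 had an unadjusted p under 0.05. DESeq2 called 0, without a value for BAZ1A, where it called 7192 of 13136 genes. Without 4-2V edgeR called 2 of 5 (40.0%, where 58.3% of all genes were called). BAZ1B, the Williams syndrome transcription factor that partners SMARCA5, had 478 CPM in 4-2V, 113 to 140.3 CPM in the other growing libraries and 143.5 to 158 CPM in 4OHT_siNT. Its value was −0.30 ± 0.28 (adjusted p = 0.385) with 4-2V, 0.26 ± 0.08 (adjusted p = 0.00841) without it and 0.33 (adjusted p = 0.00191) within VM sets. BAZ1A (ACF1) had 465 CPM in 4-2V, 72.4 to 98.1 CPM in the others and 83.6 to 110.3 CPM in 4OHT_siNT. Its value was −0.63 ± 0.36 (adjusted p = 0.147) with 4-2V and 0.16 (adjusted p = 0.175) without it. BAZ1A was called with siNT 2 alone, a fit that lacks 4-2V, and with siNT 4 alone, a fit that holds it. BPTF, the large subunit of NURF, had 0.0051 with all libraries (adjusted p = 0.982) and was called higher without 4-2V and within VM sets (0.23 and 0.30, adjusted p = 0.0329 and 0.0278). The ATPases SMARCA1 and SMARCA5 had values of −0.34 and 0.054 (adjusted p = 0.123 and 0.656). SMARCA1 had 337 CPM in 4-2V and at most 167.1 CPM in the other growing libraries. Neither ATPase was called without 4-2V.

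Of the 9 CHD and NuRD genes, CHD7 and CHD3 were called (22.2%, where 52.8% of all genes were). Without 4-2V 4 were called (44.4%, where 58.3% of all genes were). CHD7, an enhancer-bound remodeller mutated in CHARGE syndrome, rose most of all 42 genes, from a low level. It ran from 0.247 through 0.911 to 2.15 CPM in DMSO_siNT and from 3.94 through 4.21 to 6.08 CPM in 4OHT_siNT, without overlap. The lowest growing library held 3 counts, 4-2V was the highest, and the change was 2.22 ± 0.32 (adjusted p = 8.08e-06), or 2.52 ± 0.29 without 4-2V. CHD3 and CHD4 are alternative ATPases of NuRD. CHD3 ran from 153 through 195 to 254 CPM in DMSO_siNT and from 101.5 through 112 to 128 CPM in 4OHT_siNT, without overlap, and fell by 0.79 on the log2 scale (SE 0.14, adjusted p = 7.37e-05; −0.84 without 4-2V). CHD4 ran from 203 through 253 to 715 CPM and from 313 through 386 to 443 CPM. Again 715 CPM was 4-2V and the others reached 259 CPM at most, so that CHD4 was not called with it (0.27 ± 0.24, adjusted p = 0.374) and was called higher without it (0.69 ± 0.12, adjusted p = 4.97e-05) and within VM sets (0.74, adjusted p = 0.000313). CHD8 was at 54.02 to 100.8 and 79.7 to 109 CPM (0.24 ± 0.15, adjusted p = 0.176), and it was called with siNT 4 alone. The NuRD subunits MTA1, MTA2, HDAC1 and HDAC2 had values from −0.44 to 0.18 with no call in either fit. HDAC2, at −0.44, had 395 CPM in 4-2V and at most 181.1 CPM in the other growing libraries. HDAC2 was called lower in 3 of 18 leave-outs and was also called with siNT 4 alone. CHD1 was called higher without 4-2V (0.24, adjusted p = 0.0463).

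In the INO80 family, SRCAP, the ATPase that deposits histone H2A.Z, was called higher (0.58 ± 0.21, adjusted p = 0.0258; 0.48 without 4-2V and 0.69 in VM sets). The call was lost without DMSO_siNT 4-3VM, without 4OHT_siNT 4-2VM and with siNT 2 alone (0.13, adjusted p = 0.666). It ran from 35.7 through 66.5 to 87.4 CPM in DMSO_siNT and from 68.2 through 99.0 to 114 CPM in 4OHT_siNT, which overlap. INO80 and EP400 were at −0.11 and 0.062 (adjusted p = 0.427 and 0.784), and INO80 was called with siNT 2 alone. HELLS, DPF3, SMARCD3, SMARCE1, CHD3 and CHD7 were called in each of the 18 leave-outs and 9 other alternatives run for this comparison. The share of all genes called in every one of these fits was not computed, so no background stands beside this count.

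**Figure D2:**
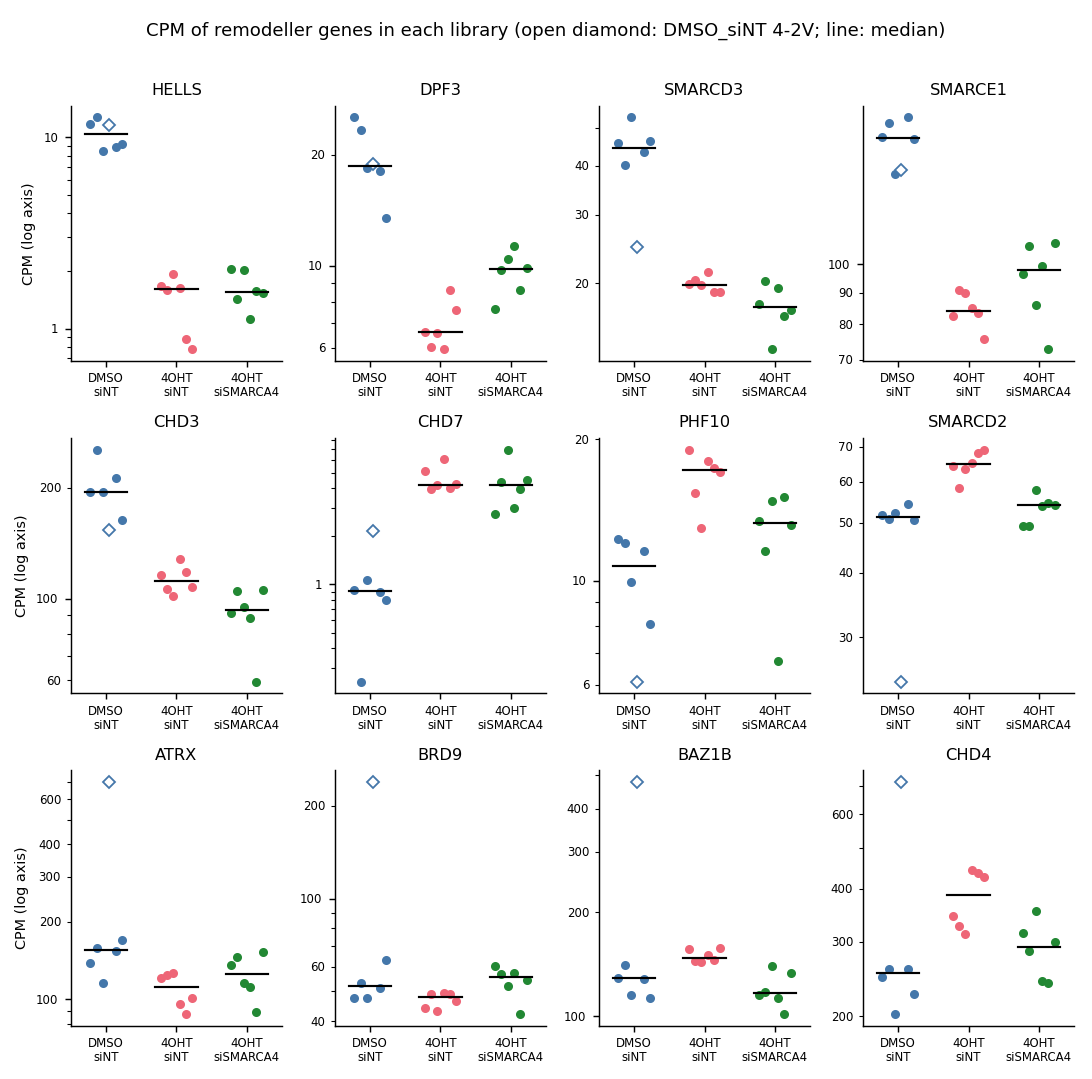
CPM of 12 genes in every library (y axis, log scale) by group (x axis), with a line at each median and an open diamond for DMSO_siNT 4-2V. HELLS, DPF3, SMARCD3, SMARCE1 and CHD3 lie lower and CHD7, PHF10 and SMARCD2 higher in all 4OHT_siNT libraries, while in ATRX, BRD9, BAZ1B and CHD4 the diamond lies above every other library, at 699, 239, 478 and 715 CPM.

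Levels can be compared between genes only per length of transcript, here the union of annotated exons, which counts exons of isoforms these cells may not make. In 4OHT_siNT the median level per kilobase was highest for SMARCA1 (34.2 CPM per kb), CHD4 (30.4), MTA2 (28.0), HDAC1 (24.7) and BAZ1B (20.9), and lowest for HELLS (0.113), CHD7 (0.223) and DPF3 (0.368). In DMSO_siNT the same scale gave 0.73 for HELLS, 0.0482 for CHD7 and 1.04 for DPF3. HELLS and CHD7 thus exchanged their order between the groups.

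The promoters of the 4 genes that fell most among the 6 called in every alternative are shown, beside letters bound by E2F factors, known for driving cell-cycle genes, and by AP-1, known for senescence enhancers. A window from 250 bases before to 50 after the start site was available for 34 of the 42 genes (RefSeq, GRCh38.p14). Capitals mark E2F-like letters (TTTGGCGC, TTTCCCGC, TTTCGCGC or TTTGCCGC) or AP-1 letters (TGACTCA or TGAGTCA) on either strand. The windows are chr10:94545538-94545837 (plus strand) for HELLS, chr14:72894052-72894351 (minus strand) for DPF3, chr7:151277100-151277399 (minus strand) for SMARCD3 and chr17:40647769-40648068 (minus strand) for SMARCE1.
HELLS: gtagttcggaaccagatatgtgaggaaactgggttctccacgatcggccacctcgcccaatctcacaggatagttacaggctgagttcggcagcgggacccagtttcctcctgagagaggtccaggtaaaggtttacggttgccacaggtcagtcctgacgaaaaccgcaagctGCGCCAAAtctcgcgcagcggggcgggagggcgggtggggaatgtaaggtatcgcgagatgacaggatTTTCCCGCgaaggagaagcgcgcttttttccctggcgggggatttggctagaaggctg
DPF3: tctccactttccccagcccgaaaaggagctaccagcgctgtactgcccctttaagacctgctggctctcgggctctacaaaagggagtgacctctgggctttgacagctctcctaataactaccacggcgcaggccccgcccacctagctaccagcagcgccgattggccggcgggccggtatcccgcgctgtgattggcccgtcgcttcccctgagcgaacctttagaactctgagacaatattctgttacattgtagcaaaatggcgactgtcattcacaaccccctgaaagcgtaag
SMARCD3: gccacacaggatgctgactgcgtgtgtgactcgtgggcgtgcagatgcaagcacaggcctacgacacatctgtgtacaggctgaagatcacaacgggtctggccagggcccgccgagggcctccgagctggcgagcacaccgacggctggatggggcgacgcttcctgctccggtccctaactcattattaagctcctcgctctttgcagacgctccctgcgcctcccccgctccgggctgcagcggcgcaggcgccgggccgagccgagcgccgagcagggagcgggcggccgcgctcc
SMARCE1: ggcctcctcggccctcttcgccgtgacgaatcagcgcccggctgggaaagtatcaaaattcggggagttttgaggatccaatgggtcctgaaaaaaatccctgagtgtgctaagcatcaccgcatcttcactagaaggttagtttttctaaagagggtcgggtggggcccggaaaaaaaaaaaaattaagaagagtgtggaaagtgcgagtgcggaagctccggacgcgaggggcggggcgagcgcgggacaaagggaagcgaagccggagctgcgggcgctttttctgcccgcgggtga
The HELLS window held GCGCCAAA 76 bases and TTTCCCGC 8 bases before the start site, and the windows of DPF3, SMARCD3 and SMARCE1 held neither kind of letters. E2F-like letters occurred in 2 of 34 member promoters, HELLS and BRD7 (5.88%), against 5.37% of 10330 promoters of tested genes and 4.08% of all 18292. AP-1 letters occurred in 1 of 34, SMARCB1 (2.94%, against 3.08% and 4.21%). The CHR letters TTTGAA occurred in 0 of 34, where 9.62% of tested and 13.1% of all promoters held them. CCAAT occurred in 14 of 34 (41.2%, against 36.5% and 36.4%), including HELLS, DPF3 and SMARCE1. A match is a description of letters and not a site in use.

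Remodeller genes outside the 42 were read from a list of 52, of which 46 were tested. In senescence 7 of them were called higher and 11 lower (39.1% in all, where 52.8% of all genes were called), and their median change was −0.108. The largest rises were of BAZ2A, a subunit of the nucleolar complex NoRC (0.82 ± 0.13), and SS18L1, the SS18 paralog (0.78 ± 0.14), and the largest falls of ING3, a subunit of the NuA4 acetyltransferase (−0.97 ± 0.16), and MTA3, the MTA1 paralog (−0.87 ± 0.10). Their adjusted p ran from 4.66e-07 to 9.91e-05. Without 4-2V, 25 were called, 10 higher and 15 lower (54.3%, where 58.3% of all genes were called).

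To ask which of these genes differ when SMARCA4 is knocked down in senescent cells, 4OHT_siSMARCA4 was compared with 4OHT_siNT. With all libraries in the fit 2 of 42 genes were called, 1 higher and 1 lower. That is 4.76% of them, where 10.6% of all genes were called (4.99% higher and 5.65% lower). The median log2 fold change was −0.035, beside 0.0102 for all genes. SMARCC2 ran from 71.9 through 88.7 to 100.2 CPM in 4OHT_siNT and from 62.8 through 67.8 to 75.7 CPM in 4OHT_siSMARCA4. SMARCC2 lies at chromosome 12, 56162359 to 56189567, minus strand. The ranges overlapped, with 2 of the 6 control libraries below the highest knockdown library, and SMARCC2 was called lower (−0.35 ± 0.10, adjusted p = 0.0343). DPF3 ran from 5.94 through 6.60 to 8.597 and from 7.64 through 9.79 to 11.3 CPM, also with overlap, and was called higher (0.48 ± 0.15, adjusted p = 0.0469). Every knockdown library had less DPF3 than the lowest DMSO_siNT library, at 13.5 CPM. Both calls were close to the threshold. SMARCC2 lost its call in 8 of 18 leave-outs and DPF3 in 12 of 18, and neither was called with siSMARCA4_2 alone (adjusted p = 0.103 and 0.234) or siSMARCA4_4 alone (adjusted p = 0.27 and 0.16). For scale, SMARCA4 itself changed by −1.61 ± 0.14 (adjusted p = 1.3e-06) and SMARCA2 by −0.58 ± 0.12 (adjusted p = 0.0048).

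**Figure D3:**
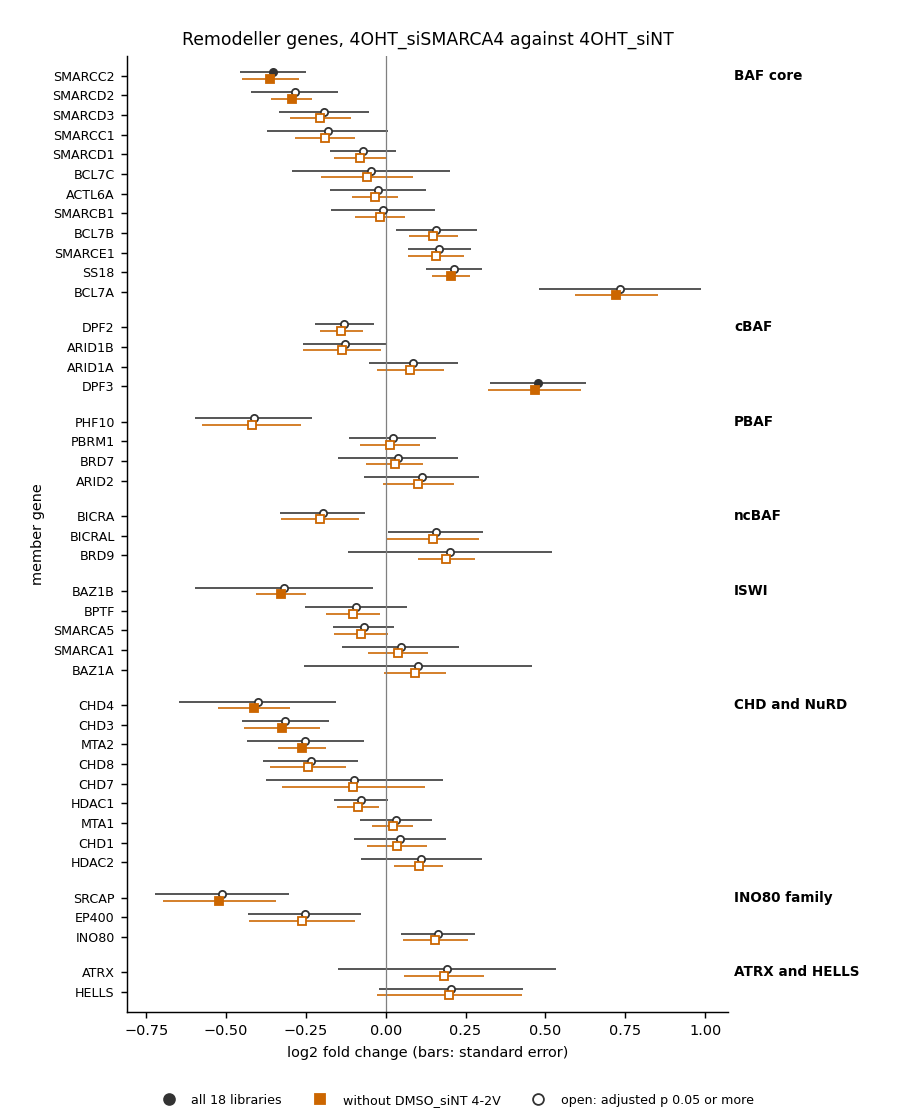
Log2 fold change of each of the 42 genes in 4OHT_siSMARCA4 over 4OHT_siNT (x axis) by complex (y axis), with bars for the standard error, from all 18 libraries (circles) and without DMSO_siNT 4-2V (squares). Filled marks passed the test. The values of the fits nearly coincide, from −0.51 for SRCAP to 0.73 for BCL7A, while the bars are shorter and 10 marks rather than 2 are filled without that library.

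The library DMSO_siNT 4-2V is in neither arm of this comparison, but it enters the shared estimate of the spread. Without it the fold changes hardly moved and 10 members were called, 3 higher and 7 lower (23.8%, where 24.6% of all genes were called, 11.7% higher and 12.9% lower). BCL7A ran from 7.79 through 9.03 to 11.3 CPM in 4OHT_siNT and from 11.8 through 15.7 to 18.8 CPM in 4OHT_siSMARCA4. Every knockdown library lay above every control library, and the knockdown range was close to that of the growing libraries other than 4-2V, 13.4 to 18.9 CPM. The change was 0.73 ± 0.25 (adjusted p = 0.071) with all libraries, 0.72 ± 0.13 (adjusted p = 0.000559) without 4-2V and 0.96 (adjusted p = 0.000373) within VM sets. SS18, the subunit fused to SSX in synovial sarcoma, ran from 84.9 through 89.0 to 95.03 and from 98.2 through 103 to 108 CPM. It too did not overlap, with 0.21 ± 0.09 (adjusted p = 0.13) and, without 4-2V, 0.20 ± 0.06 (adjusted p = 0.0156).

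The genes called lower without 4-2V were SRCAP, CHD4, SMARCC2, BAZ1B, CHD3, SMARCD2 and MTA2. SMARCD2 ran from 58.2 through 64.8 to 69.1 CPM in 4OHT_siNT and from 49.2 through 53.99 to 57.7 CPM in 4OHT_siSMARCA4, and BAZ1B from 143.5 through 147.5 to 158 and from 101 through 116 to 139 CPM. Neither overlapped. Their changes without 4-2V were −0.29 ± 0.06 and −0.33 ± 0.08 (adjusted p = 0.00269 and 0.00431), and with it −0.28 ± 0.14 and −0.32 ± 0.28 (adjusted p = 0.205 and 0.527). SRCAP ran from 68.2 through 99.0 to 114 and from 54.4 through 58.2 to 104 CPM. The groups overlapped because the knockdown library 4-2V had 104 CPM, where the other 5 had 54.4 to 63.1 CPM. SRCAP changed by −0.51 ± 0.21 (adjusted p = 0.132; −0.52 and 0.0358 without DMSO_siNT 4-2V; −0.78 and 0.0146 in VM sets). CHD4 ran from 313 through 386 to 443 and from 239.8 through 292 to 354 CPM, with −0.40 ± 0.24 (adjusted p = 0.331), or −0.41 (adjusted p = 0.0112) without 4-2V. With all libraries CHD3 was at 101.5 to 128 and 59.5 to 106 CPM (−0.31 ± 0.14, adjusted p = 0.156). MTA2 was at 108 to 127 and 78.5 to 110.1 CPM (−0.25 ± 0.18, adjusted p = 0.426, also with all libraries). Knockdown library 4-3V was the lowest for both genes. The other knockdown libraries had 88.5 to 106 CPM of CHD3 and 101 to 110 CPM of MTA2.

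Ranges did not overlap for 4 members in this comparison (SMARCD2, SS18, BCL7A and BAZ1B), or 9.52%, against 11.4% of all genes. All control libraries were of VM sets and 3 of the 6 knockdown libraries of V sets, so the comparison was repeated within VM sets with the 2 knockdown libraries titled VM, leaving out the untitled library named 1VM. There 9 members were called, 2 higher (BCL7A and DPF3) and 7 lower (BAZ1B, CHD4, PHF10, SMARCC1, SMARCC2, SMARCD2 and SRCAP), where 21.0% of all genes were called. With the untitled library added 11 members were called (26.2%, where 30.4% of all genes were called), and with only the 2 groups compared 9 (21.4%, where 26.9% were). These fits all leave out DMSO_siNT 4-2V too, and leaving out that library alone gave 10 calls (23.8%). The part of set matching in these counts was not tested. PHF10 ran from 12.9 through 17.2 to 19.01 CPM in 4OHT_siNT and from 6.74 through 13.3 to 15.1 CPM in 4OHT_siSMARCA4. The value of 6.74 CPM was that of the VM library 4-2VM, and PHF10 changed by −0.41 ± 0.18 (adjusted p = 0.167) with all libraries and −0.87 (adjusted p = 0.00843) within VM sets. For the other 46 remodeller genes tested, edgeR called 0 under knockdown, where 10.6% of all genes were called, and 7 had an unadjusted p under 0.05. DESeq2 called 4 (8.7%, where it called 14.7% of all genes). Without 4-2V, 6 were called, 5 higher and 1 lower (13.0%, where 24.6% of all genes were called). Of the proliferation list CDK1 was called higher (1.44 ± 0.33, adjusted p = 0.00791).

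**Figure D4:**
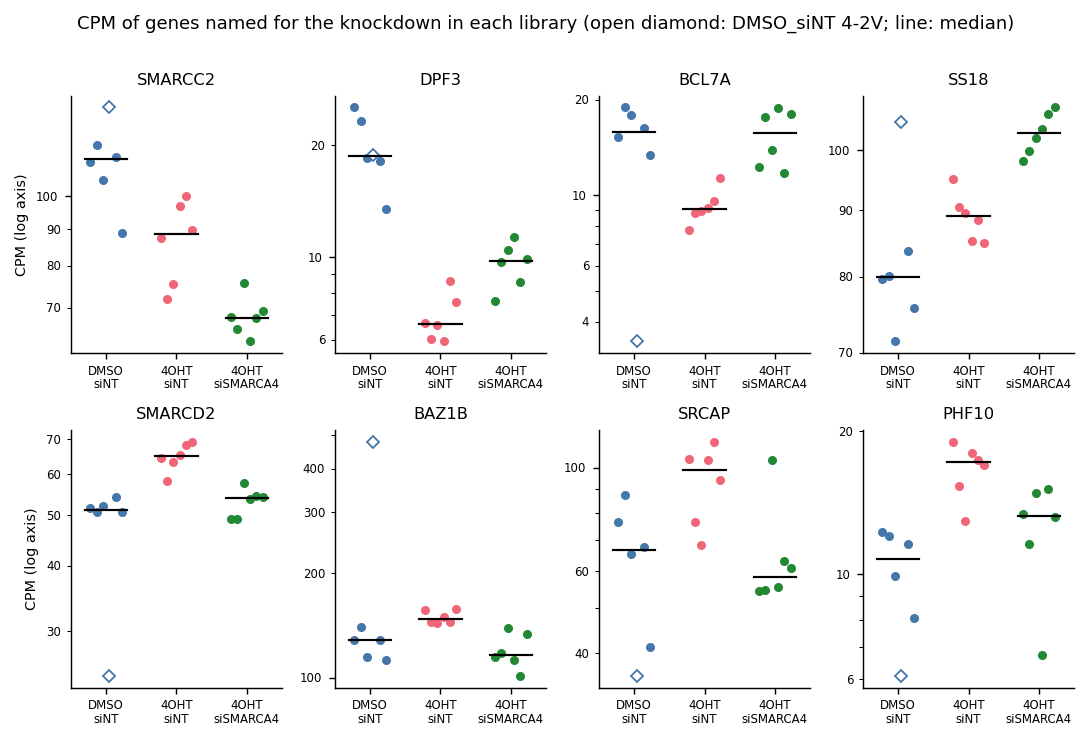
CPM of 8 genes in every library (y axis, log scale) by group (x axis), with a line at each median and an open diamond for DMSO_siNT 4-2V. In SMARCC2, SMARCD2, BAZ1B, SRCAP and PHF10 the knockdown median lies below that of 4OHT_siNT, and in DPF3, BCL7A and SS18 above it, with a single high knockdown library for SRCAP (104 CPM) and a single low one for PHF10 (6.74 CPM).

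Within each arm the siRNAs were compared to see how far they differ. Between siSMARCA4_2 and siSMARCA4_4 edgeR called 0 of the 42 genes, where 0.00732% of all genes were called. An unadjusted p under 0.05 was reached by 1 gene, and the lowest adjusted p was 0.771, for SMARCE1. DESeq2 called 0 members, with 2 unadjusted, and 0.344% of all genes. Without DMSO_siNT 4-2V edgeR called 0 members, with 5 unadjusted, and 0.391% of all genes. Between siNT 2 and siNT 4 in 4OHT cells it called 0, where 0.0732% of all genes were called, with 2 unadjusted and a lowest adjusted p of 0.434, for BICRA. DESeq2 called 0 members, with 2 unadjusted, and 1.38% of all genes. Without DMSO_siNT 4-2V edgeR called 0 members, with 8 unadjusted, and 4.24% of all genes. The fold changes between siRNAs ran from −0.38 (SRCAP) to 0.47 (ATRX) in the knockdown arm and from −0.41 (CHD4) to 0.64 (HELLS) in the control arm.

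Cells with knockdown were also compared with growing cells, a comparison that shares libraries with both others, so its values are only set beside theirs. In 4OHT_siSMARCA4 over DMSO_siNT 11 of 42 genes were called, 2 higher (CHD7 and SS18) and 9 lower, where 50.5% of all genes were called. Without DMSO_siNT 4-2V 17 were called, where 59.1% of all genes were. HELLS was at −2.66, SMARCD3 at −1.28, CHD3 at −1.10, DPF3 at −1.03, SMARCE1 at −0.73, SMARCC2 at −0.71 and CHD7 at 2.12 on the log2 scale, each called. PHF10, SRCAP, SMARCD2 and DPF2, called higher in 4OHT_siNT, were at 0.31, 0.071, 0.16 and 0.22 here (adjusted p = 0.168, 0.8, 0.335 and 0.055). BCL7A was at 0.11 (adjusted p = 0.745). The medians of SMARCC2 were 112.5, 88.7 and 67.8 CPM in DMSO_siNT, 4OHT_siNT and 4OHT_siSMARCA4, whereas those of BCL7A were 15.8, 9.03 and 15.7 CPM.

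The balance of related genes was read within each library as the log2 ratio of their CPM, after a prior count of 2 was added. Some products of these genes replace each other in a complex, while others sit in the same or in different complexes. Scaling between libraries enters the ratio only through the prior count, which weighs most at low counts such as those of CHD7. For 17 pairs and both comparisons, 34 tests were made by two-sided exact permutation of the libraries, adjusted over all 34. The smallest p that 6 against 6 libraries allow is 0.00216. In senescence 10 of 17 ratios differed and 5 of these did not overlap. Ratios of other gene pairs were not computed, so no share over all pairs stands beside the counts of ratios given here and below. Of single genes in this comparison 52.8% were called by edgeR, a different test, and 33.8% did not overlap. The balance of SMARCD2 to SMARCD3 moved from 0.15 (range −0.029 to 0.33) to 1.69 (1.504 to 1.85) in the mean, and that of SMARCD1 to SMARCD3 from 0.52 to 1.60. SMARCD1 to SMARCD2 went from 0.37 (0.084 to 0.88) to −0.095 (−0.16 to −0.031). DPF2 to DPF3 went from 1.54 (1.15 to 2.04) to 3.37 (3.12 to 3.72). ARID1A to ARID1B went from 1.14 (0.946 to 1.46) to 0.716 (0.662 to 0.818). Each of these 5 ratios had an adjusted exact permutation p of 0.0092 and no overlap between groups.

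Ratios that overlapped but differed in senescence were those of DPF2 to PHF10 (−0.40), BCL7B to BCL7C (0.49), BICRA to BICRAL (0.46), CHD3 to CHD4 (−1.18) and CHD7 to CHD8 (1.91), with adjusted exact permutation p from 0.0134 to 0.0322. Without DMSO_siNT 4-2V the NuRD ATPase ratio CHD3/CHD4 moved by −1.51, BCL7A/BCL7B by −1.04 and SMARCC1/SMARCC2 by 0.58, each without overlap (adjusted exact permutation p = 0.00613), and 12 ratios differed in all. With 4-2V the last of these, SMARCC1/SMARCC2, had 0.43 and an adjusted exact permutation p of 0.0532.

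Under knockdown 7 of 17 ratios differed and 3 of these did not overlap. Of single genes 10.6% were called by edgeR and 11.4% did not overlap, and again no share over other gene pairs was computed. DPF2/DPF3 went back from 3.37 to 2.77 (2.56 to 3.07), SMARCD1/SMARCD2 from −0.095 to 0.11 (−0.028 to 0.35) and MTA1/MTA2 from −0.20 to 0.092, each with an adjusted exact permutation p of 0.0092. The others were ARID1A/ARID1B (0.22), BCL7A/BCL7B (0.55), BAZ1A/BAZ1B (0.42) and BICRA/BICRAL (−0.32), with adjusted exact permutation p from 0.0134 to 0.0476. Within VM sets, 2 against 6 libraries allow no exact permutation p below 0.0357, and 0 of the 17 passed after adjustment. The values there were −0.77 for DPF2/DPF3, 0.23 for SMARCD1/SMARCD2 and 0.74 for BCL7A/BCL7B. The comparisons share the 4OHT_siNT libraries, so their values for a ratio are not independent of each other.

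**Figure D5:**
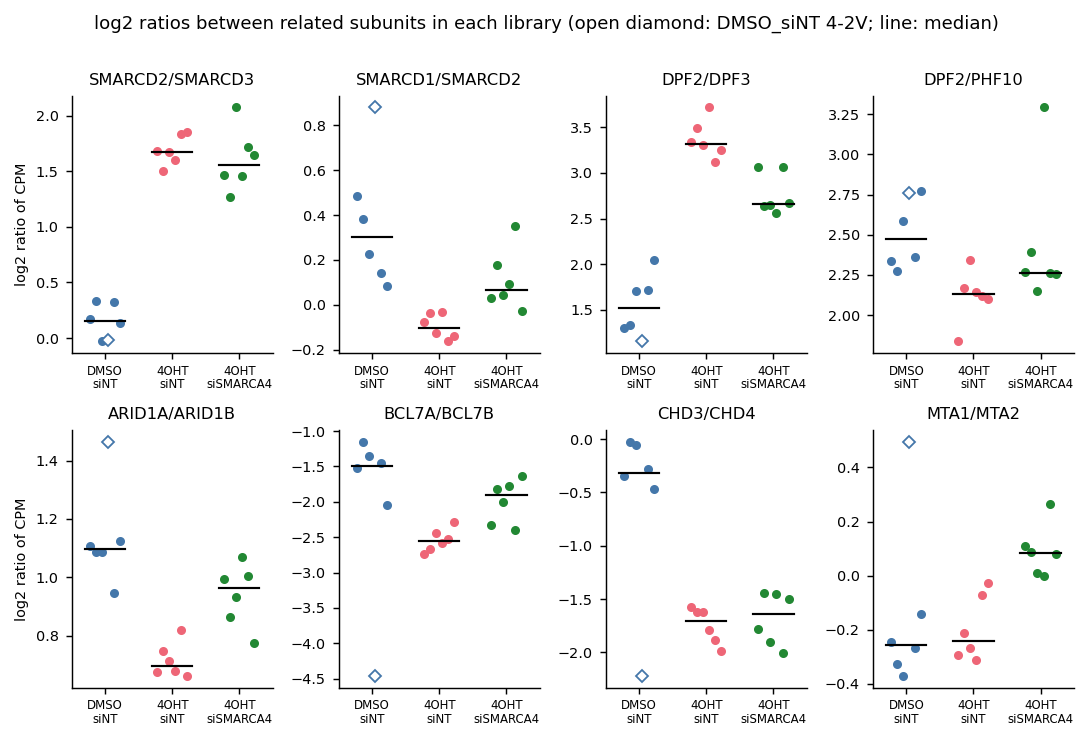
Log2 ratio of the CPM of related genes in every library (y axis) by group (x axis) for 8 pairs, with a line at each median and an open diamond for DMSO_siNT 4-2V. SMARCD2/SMARCD3 and DPF2/DPF3 separate DMSO_siNT from 4OHT_siNT libraries, with every library of these groups in the range given in the text. SMARCD2/SMARCD3 runs from 1.27 to 2.08 in 4OHT_siSMARCA4. The diamond lies far from the other growing libraries for BCL7A/BCL7B (−4.46) and CHD3/CHD4 (−2.22).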

How the data were processed

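RNA was extracted with Qiagen RNeasy kits at day 7 from cells carrying a retroviral ER:RAS vector and reverse-transfected with siRNA, and polyA libraries were made with a directional NEBNext Ultra II kit. The authors deposited raw counts per gene symbol. The submitters' processing notes name STAR 2.7.8a, DESeq2 1.36.0 and hg38. The counting program, annotation and strand setting are not given in the sources used here, so reads of overlapping or antisense genes, and of close paralogs, may not be told apart.

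The 36 count columns were summed to 18 libraries (2 lanes each). Of 29 labelled samples 17 were matched by name and 12 were not analysed here, and 1 library (the untitled library, column named 1VM) was placed in its group by its column name alone. Lanes of a library differed by 1.19 to 1.27 in chi-square per degree of freedom and libraries of a group by 2.33 to 315. Thus no library was counted more than once within a group, and pairs across groups were not checked. Genes were filtered with a minimum count of 10, leaving 13136 genes with 99.9% of counts, scaled by TMM and tested with edgeR 4.0.16 (R 4.3.3) by quasi-likelihood in 1 fit of 18 libraries without covariates, with Benjamini-Hochberg adjustment over all genes tested. SE is the absolute log2 fold change divided by the square root of F. The common biological coefficient of variation was 23.3%. Adjusted p-values in the text are from edgeR unless named as exact permutation, which was used for paralog ratios (prior count 2, Python 3.11.15). Levels are CPM, and positions are from GENCODE 44. The test was checked on simulated counts. Alternatives were DESeq2 1.42.0, other scaling and filters, VM sets, fewer groups or siRNAs, a set-name block and leaving out each library. Including the untitled library with the VM sets was chosen after seeing the data.

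Full values were given for genes called under knockdown, for the largest changes called in senescence and for paralogs whose ratio differed, and the rest were summarised. The members, gene lists and rules were chosen with earlier results of these data known.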

Additional observations from a re-analysis of the deposited data

Results flagged for a closer look

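In each group of 6 libraries the gap from the lowest or highest library to its neighbour was divided by the range of the group, and a library was held to stand apart above Dixon's critical value at the 95% level. Of 126 sets of values 27 had such a library, where chance gives about 1 in 20, or 6.3 sets. In 20 of the 27 it was DMSO_siNT 4-2V. It was the highest growing library for SMARCC1 (0.677), ARID2 (0.67), BRD7 (0.763), BRD9 (0.824), SMARCA1 (0.75), BAZ1A (0.837), BAZ1B (0.849), BPTF (0.673), CHD4 (0.807), ATRX (0.787) and HDAC2 (0.817). It was the lowest for SMARCB1 (0.766), SMARCD2 (0.912), SMARCD3 (0.635), ACTL6A (0.864), DPF2 (0.716), BCL7A (0.794), MTA1 (0.89), MTA2 (0.9) and HDAC1 (0.766). The value beside each gene is the gap as a share of the range.

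The other 7 were spread over libraries. In DMSO_siNT, ARID1B was lowest in 4-3VM (29.7 CPM against 41.6 to 49.3, share 0.665). In 4OHT_siSMARCA4, library 4-2VM was lowest for PHF10 (0.667) and SMARCA1 (108 CPM against 146 to 169, 0.682). Library 4-3V was lowest for CHD3 (59.5 CPM against 88.5 to 106, 0.691) and MTA2 (78.5 CPM against 101 to 110.1, 0.752). Library 4-2V of the same group was highest for CHD8 (109 CPM against 72.0 to 81.8, 0.689) and SRCAP (0.772).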

How the results depend on the processing

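In senescence 18 members were called, 16 with DESeq2 (which gave ATRX, BAZ1A and BRD9 no adjusted p) and 14 to 24 when a library was left out. Over all genes the counts were 6935, 7192 with DESeq2 and 6511 to 7734 when a library was left out. The set name as a replicate block gave 8, where the count over all genes went from 6935 to 4356, and PBRM1, BRD7, DPF2, SMARCD2, SMARCC2, ATRX, ARID1A, BRD9, BCL7A and BICRAL lost their calls. The median log2 fold change of the members was −0.109, from −0.117 to −0.0178 without single libraries, −0.00118 with the replicate block, 0.041 within VM sets and 0.0389 with the untitled library added to these. SMARCC1 changed sign to 0.386 and 0.384 in these VM fits and to 0.272 without DMSO_siNT 4-2V, and BAZ1B likewise to 0.334, 0.332 and 0.264. Without single libraries SMARCC1 ranged from −0.103 to 0.272 and BAZ1B from −0.392 to 0.264. BAZ1A was called higher with siNT 2 alone (0.382) and was also called with siNT 4 alone. Of these fits, the VM fits and siNT 2 alone lack DMSO_siNT 4-2V, while siNT 4 alone holds it. Why these fits differ was not tested.

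Under knockdown the count of 2 went to 10 without DMSO_siNT 4-2V, 9 within VM sets, 11 with the untitled library added, and 9 with only the 2 groups compared. Each of these other fits lacks DMSO_siNT 4-2V as well. It went to 1 with DESeq2 size factors and with siNT 4 alone, and to 0 with all genes of at least 1 count, with the replicate block, with siSMARCA4_2 alone and with siSMARCA4_4 alone. DESeq2 called 3, and leave-outs gave 0 to 10, with 0 without 4OHT_siNT 2-1VM, 4-1VM or 4-3VM and without 4OHT_siSMARCA4 2-3VM, 4-2VM or the untitled library. Over all genes the count was 1397, with 236 under the replicate block, 2858 within VM sets and 3269 without DMSO_siNT 4-2V. It was 4064 with the untitled library added, 3405 with only the 2 groups compared, 1936 with DESeq2 and 923 to 3269 in leave-outs. It was 1387 with DESeq2 size factors, 1185 with all genes of at least 1 count and 543 with siNT 4 alone. With siSMARCA4_2 alone it was 1174 and with siSMARCA4_4 alone 254. The member median of −0.035 ranged from −0.0687 to −0.00873 in leave-outs and was −0.0935 within VM sets. In 4OHT_siSMARCA4 over DMSO_siNT, leave-outs gave 10 to 17 member calls beside 11, the highest without DMSO_siNT 4-2V. Over all genes they gave 6347 to 7850 beside 6635, also highest without DMSO_siNT 4-2V. Ratios that differed numbered 9 to 12 in senescence and 6 to 8 under knockdown in leave-outs, and 0 under knockdown within VM sets.

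The main fit did not pair libraries by set name. Deviations from group means of libraries with the same set name correlated between −0.286 and 0.299 over 15 pairs, with 5 above 0.1, and those of different sets between −0.298 and 0.29 over 81 pairs. Counts at low levels limit CHD7, with 3 counts in its lowest library. They also limit HELLS, whose lowest library held 10 counts in 4OHT_siNT and 13 in 4OHT_siSMARCA4.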
